A study of Mus musculus with 3 samples.

Results

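The 9 genes described here encode transcription factors of the mesenchyme of the limbs and the body wall: *Prrx1*, *Prrx2*, *Tbx4*, *Tbx5*, *Tbx15*, *Tbx18*, *Pitx1*, *Tcf21* and *Osr1*. They were chosen by name, as 9 of the 29267 genes in the expression tables, and 8 of them had a count in at least 1 of 3 libraries. The RNA-seq libraries came from mouse embryonic fibroblasts (MEFs) of the OG2 strain and of the ICR strain, both at passages 3 to 5, and from embryonic stem cells (ESCs) of the R1 line at passage 30. Each strain or line had 1 library, no treatment is given in the labels, and OG2 is a strain that carries a green fluorescent reporter of *Pou5f1*. The study's methods describe MEFs from mid-gestation embryos with that reporter allele, and do not say which parts of the embryo were left in the culture or whether the ICR cells carried it too. The study used MEFs and ESCs as the start and the end of reprogramming.

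Limb buds grow out of the lateral plate mesoderm of the flank, and their mesenchyme forms the cartilage, bone, tendon and connective tissue of the limb, whereas the muscle cells migrate in from the somites. Forelimb and hindlimb buds are set apart early by *Tbx5* in the forelimb and by *Tbx4* and *Pitx1* in the hindlimb, while paired-related homeobox factors are shared by both. Fibroblasts in culture are known to keep part of the positional transcription factor pattern of the place they came from.

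The libraries held 5149312 counts (OG2 MEF), 4590619 counts (ICR MEF) and 1717838 counts (the library labelled ESC), so that a count of 0 allowed a level of up to 0.583, 0.654 and 1.75 CPM (counts scaled to the library total), respectively, at 3 counts. All 9 fibroblast markers were lower in the library labelled ESC by edgeR's quasi-likelihood test, with a summed level of 15009 and 15610 TPM (a level scaled for gene length and library) in OG2 and ICR MEFs and 1157 TPM in the library labelled ESC. Of 8 pluripotency markers, 4 were at 0 there (*Zfp42*, *Esrrb*, *Dppa5a* and *Utf1*), and the list summed to 51.2 TPM against 0.910 and 0.830 TPM in the MEFs. The others were higher there than in OG2 and ICR MEFs. *Pou5f1* had 0, 0 and 71 counts in OG2, ICR and the library labelled ESC, and *Nanog* 2.27, 0 and 51.14. *Sox2* had 3, 4 and 32, and *Tdgf1* 0, 0 and 2. The stem cell label was therefore only partly met by its markers, and the sample is called the library labelled ESC throughout. In bulk RNA, fewer cells of a type and less RNA per cell cannot be told apart. All intervals are 95% intervals, exact Poisson for counts and exact conditional binomial for ratios, and cover counting error only.

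The genes lie on 9 chromosomes, as annotated in GENCODE M21 on GRCm38. *Prrx1* (ENSMUSG00000026586) lies at chr1:163245119-163313710 on the minus strand and *Prrx2* (ENSMUSG00000039476) at chr2:30834972-30881251 on the plus strand. The T-box genes are *Tbx4* (ENSMUSG00000000094, chr11:85886422-85916097, plus), *Tbx5* (ENSMUSG00000018263, chr5:119832668-119885219, plus), *Tbx15* (ENSMUSG00000027868, chr3:99240381-99354259, plus) and *Tbx18* (ENSMUSG00000032419, chr9:87702800-87731260, minus). *Pitx1* (ENSMUSG00000021506) lies at chr13:55825051-55836192 on the minus strand, *Tcf21* (ENSMUSG00000045680) at chr10:22817281-22820174 on the minus strand, and *Osr1* (ENSMUSG00000048387) at chr12:9570116-9581500 on the plus strand.

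RefSeq promoter windows of 300 bases, from 250 before to 50 after the start site, were matched for 5 of the 9 genes on GRCm38.p6. The bases before the start that lie in no GENCODE exon are shown for *Prrx1*, the most abundant of the genes in MEFs, for *Tbx4*, which had a single count in the library labelled ESC, and for *Tcf21*, which had no count. The *Tbx4* start used by RefSeq lies inside the gene as GENCODE annotates it, since other transcripts start further upstream. The letters run 5′ to 3′ on the strand of the gene, and capitals mark CG dinucleotides.
Prrx1 (chr1:163313711-163313900, minus strand): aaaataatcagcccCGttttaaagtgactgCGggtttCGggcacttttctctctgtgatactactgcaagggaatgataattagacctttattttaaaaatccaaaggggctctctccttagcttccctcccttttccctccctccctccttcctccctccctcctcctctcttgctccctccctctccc
Tbx4 (chr11:85896515-85896764, plus strand): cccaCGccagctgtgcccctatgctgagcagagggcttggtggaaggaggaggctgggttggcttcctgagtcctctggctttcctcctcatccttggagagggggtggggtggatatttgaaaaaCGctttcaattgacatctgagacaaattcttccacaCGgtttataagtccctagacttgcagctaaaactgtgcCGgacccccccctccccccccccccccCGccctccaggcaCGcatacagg
Tcf21 (chr10:22820175-22820393, minus strand): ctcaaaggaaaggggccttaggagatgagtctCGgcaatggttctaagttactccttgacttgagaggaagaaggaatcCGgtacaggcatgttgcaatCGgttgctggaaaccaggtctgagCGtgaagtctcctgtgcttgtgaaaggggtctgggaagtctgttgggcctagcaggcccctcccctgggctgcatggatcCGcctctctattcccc
In the full windows, CG dinucleotides numbered 6 in *Prrx1*, 28 in *Prrx2*, 8 in *Tbx4*, 15 in *Tbx18* and 8 in *Tcf21*, where the median of all 32851 windows was 7 and the middle of the distribution ran from 3 to 20. At least 28 were found in 14.2% of all windows, and at least 6 in 56.4%. The paired-related genes thus lay on either side of the median, with *Prrx2* CG-rich and *Prrx1* below it. The letters TATAAA, searched on both strands, were found in the *Tbx4* window alone among the 5 and in 13.6% of all windows. In *Tbx4* they lie on the strand opposite to the gene, and so read as tttata in the letters shown.

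In MEFs, 8 of the 9 genes were at 1 TPM or more in both libraries, and their TPM summed to 498 in OG2 and 555 in ICR MEFs. In both libraries *Prrx1* was the highest, followed by *Prrx2*, and *Tbx4* and *Tbx5* were the lowest of the genes with a count. The sum in the library labelled ESC was 99.0 TPM.

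The paired-related homeobox genes *Prrx1* and *Prrx2* act in limb and craniofacial mesenchyme. *Prrx1* had 2565 counts in the OG2 library, 2400 in the ICR library and 111 in the library labelled ESC, which is 257, 261 and 16.3 TPM. Among genes with a TPM above 0 it ranked within the top 3.92% in OG2 and 3.85% in ICR MEFs, against 26.4% in the library labelled ESC. The MEF libraries were close together, and the third library lay far below both. *Prrx2* had 317, 339 and 128 counts, or 132, 153 and 60.3 TPM. It ranked within the top 8.0% of genes in OG2 and 7.11% in ICR MEFs, and within 11.1% in the library labelled ESC, where it was the highest of the 9.

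The limb-type genes were lower. *Tbx5*, which the forelimb bud needs to grow out, had 35 counts in the OG2 library, 56.08 in the ICR library and 2 in the library labelled ESC, or 3.31, 6.19 and 0.270 TPM. *Tbx4*, which acts in hindlimb outgrowth, had 40, 42 and 1 counts, or 4.78, 6.15 and 0.170 TPM. Their intervals overlapped within each library, so their order was not resolved in any of the 3. *Pitx1*, which gives the hindlimb its identity, had 87, 99 and 30 counts, or 16.3, 19.1 and 6.60 TPM. It was above both T-box genes in each MEF library, with no overlap of the intervals.

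Of the remaining genes, *Tbx15* and *Osr1* were next after *Prrx2* in MEFs. *Tbx15*, which acts in the skeleton and in dermal patterning, had 329, 449 and 72 counts, or 34.5, 55.05 and 10.7 TPM. *Osr1*, an odd-skipped zinc finger gene of lateral and intermediate mesoderm and of connective tissue, had 205, 197 and 8 counts, or 39.8, 44.5 and 2.18 TPM. In both MEF libraries the intervals of these genes overlapped, and the order between them was not resolved. *Tbx18*, known from the sclerotome, the epicardium and the mesenchyme of the ureter, had 124.61, 110.27 and 22 counts, or 10.4, 10.2 and 2.46 TPM. It was below *Pitx1* and above *Tbx4* and *Tbx5* in both MEF libraries without overlap.

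*Tcf21*, a bHLH gene of the epicardium and of visceral mesenchyme, had 0 counts in all 3 libraries. At the limit of 3 counts this allows up to 0.583 CPM for OG2, 0.654 CPM for ICR and 1.75 CPM for the library labelled ESC. *Tcf21* was not detectable at this depth, and *Wt1*, another gene of those tissues, had 24, 28 and 1 counts. 

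**Figure D1:**
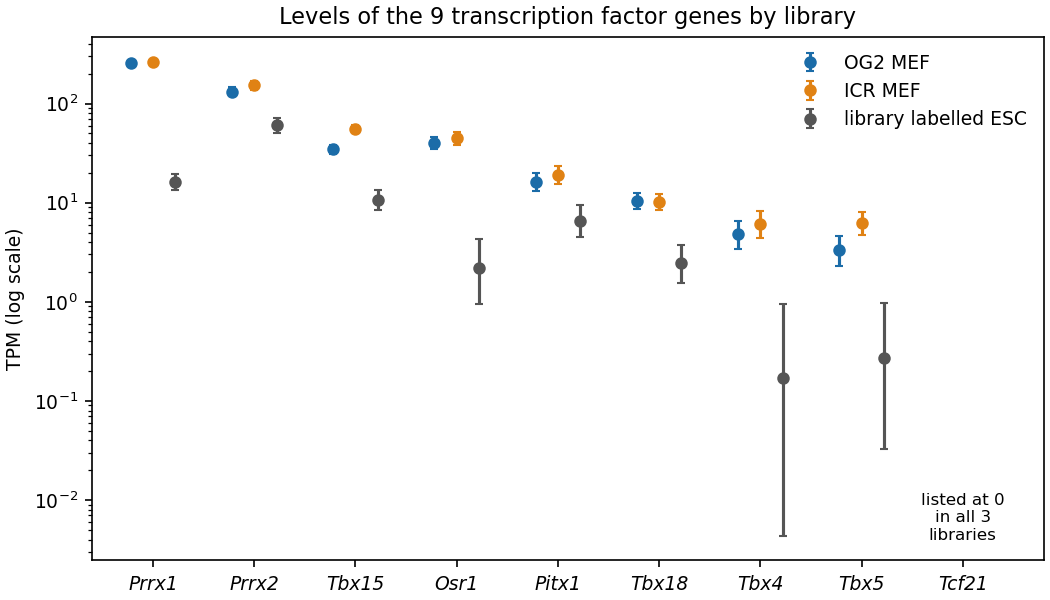
Level of each of the 9 genes in TPM on a log axis, with 1 point per library and an exact 95% Poisson interval of the count as bar. In MEFs the genes run from 257 and 261 TPM for *Prrx1* down to 3.31 to 6.19 TPM for *Tbx4* and *Tbx5*, and *Tcf21* is listed at 0 in all 3 libraries.

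Several of these genes are made as transcripts of different length, and the mean transcript length that RSEM gave each gene differed between libraries. *Pitx1* was given 2072 bases in the OG2 library, 2327 in the ICR library and 2451 in the library labelled ESC. Its 2 transcripts are 644 and 2451 bases long, so the lengths correspond to a short transcript share of 21%, 6.88% and 0%. For *Tbx4*, the estimate was 3153 bases in OG2 MEFs and in the library labelled ESC and 3011 in ICR MEFs, with 40 and 42 counts behind the MEF values. *Prrx1* lay between 3597 and 4004 bases and *Prrx2* between 1031 and 1221, whereas *Tbx5*, *Tbx15*, *Tcf21* and *Osr1* had 1 length in all 3 libraries. Exons of *Tbx18* overlap those of an opposite-strand gene, *D030062O11Rik*, which had 3.39, 5.73 and 0 counts. Exons of *Pitx1* overlap those of *Gm28760*, at 0 in all 3 libraries, and of *Gm47071* on the opposite strand, which is not used here. Whether counting used strand is not given in the sources used here, so reads of such pairs cannot be told apart.

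The OG2 and ICR libraries show how the 9 genes vary between fibroblasts of different strains, with 1 library each and therefore no test. On log2(CPM + 1) after TMM scaling, 0 of the 8 genes with a count were at least 1 log2 unit apart, where 492 of 17810 genes with a count were (2.76%). The difference between ICR and OG2 was 0.03 for *Prrx1*, 0.22 for *Prrx2*, 0.17 for *Tbx4*, 0.71 for *Tbx5*, 0.29 for *Pitx1*, 0.56 for *Tbx15*, −0.06 for *Tbx18* and 0.07 for *Osr1*, and the SD of this difference over all genes was 0.41. On this scale the value was above 0 for all but *Tbx18*, and the median over all genes with a count was 0. The share of all genes above 0 was not counted. *Prrx1* was at −0.01 with median-of-ratios size factors, so its direction was not resolved.

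For 2 of the 8 genes the counting interval of the ratio lay above 1 and for 0 below it, where it lay above 1 for 12.9% and below 1 for 12.8% of the 11854 genes with at least 20 counts over both MEF libraries. *Tbx15* was 1.49 times as high in ICR as in OG2 MEFs (1.29 to 1.72), and *Tbx5* was 1.74 times as high (1.12 to 2.74). *Prrx1* had a ratio of 1.02 (0.964 to 1.08), so that its deeper counts bounded a difference more tightly than those of *Tbx4*, with a ratio of 1.14 (0.724 to 1.81). The ratio was 1.17 (0.997 to 1.36) for *Prrx2*, 1.24 (0.921 to 1.67) for *Pitx1*, 0.959 (0.736 to 1.25) for *Tbx18* and 1.05 (0.857 to 1.28) for *Osr1*. A difference between strains and a difference between these cultures cannot be told apart. Cell type markers also moved between these libraries. Of the fibroblast list, with a similar sum in both, *Dcn* had a ratio of 1.56 (1.33 to 1.82) and *Pdgfra* one of 0.731 (0.664 to 0.805). The muscle gene *Des* had 507 counts in OG2 and 257 in ICR MEFs, the neural gene *Map2* 297 and 508, and the blood gene *Csf1r* 58.91 and 27.77. Another neural gene, *Tubb3*, went the other way from *Map2*, with 277 and 167.99. Their part in the results was not tested.

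**Figure D2:**
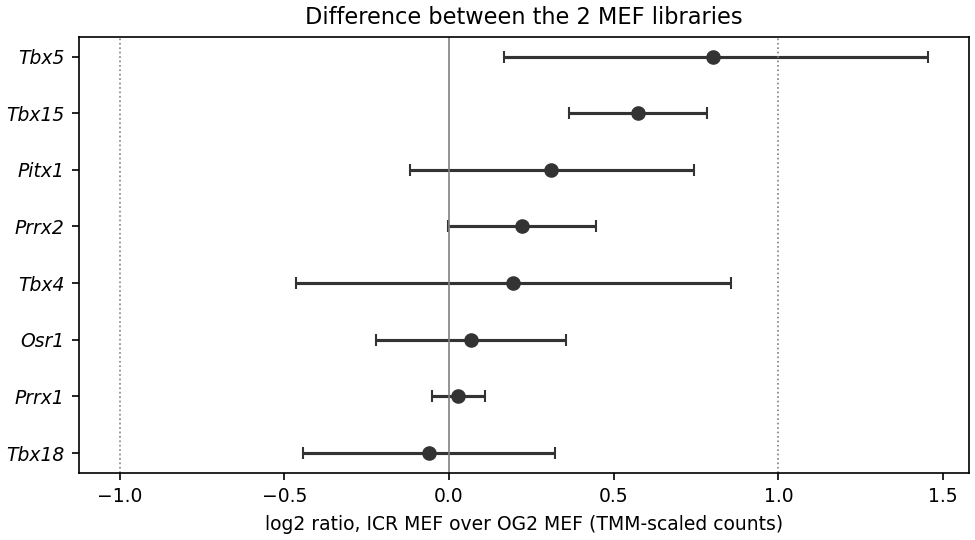
Ratio of ICR over OG2 MEFs for the 8 genes with a count, as log2 of TMM-scaled counts, with an exact 95% conditional binomial interval as bar and dotted lines 1 log2 unit from 0. *Tbx5* (1.74-fold) and *Tbx15* (1.49-fold) have intervals above 0, and no point reaches 1 log2 unit.

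Ratios within a library set forelimb against hindlimb genes and do not depend on the scaling factor given to a library. *Tbx5* was at 0.692 of the TPM of *Tbx4* in OG2 MEFs and at 1.01 of it in ICR MEFs. In counts, which hold gene length, this ratio was 0.875 (0.540 to 1.41) in OG2 and 1.33 (0.878 to 2.04) in ICR MEFs. From OG2 to ICR it changed 1.52-fold (0.796 to 2.92), which includes no change. *Tbx5* was at 0.203 of the TPM of *Pitx1* in OG2 MEFs and at 0.324 in ICR MEFs, and in counts at 0.402 (0.264 to 0.602) and 0.566 (0.400 to 0.793). The ratio changed 1.40-fold between the MEF libraries (0.819 to 2.43). Hence the higher level of *Tbx5* in ICR MEFs was not resolved as a shift against the hindlimb genes. In the library labelled ESC these ratios rest on 1 and 2 counts of the T-box genes.

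The paralogs *Prrx1* and *Prrx2* gave a further ratio, chosen after their values were seen. *Prrx1* was 1.95 times *Prrx2* in TPM in the OG2 library, 1.70 times in the ICR library and 0.271 times in the library labelled ESC. In counts, the ratio was 8.09 (7.20 to 9.12), 7.08 (6.32 to 7.96) and 0.867 (0.666 to 1.13). The MEF libraries did not differ in it beyond counting error (0.875-fold, 0.741 to 1.03). In the library labelled ESC it was 0.107 (0.080 to 0.143) of the OG2 value and 0.123 (0.092 to 0.164) of the ICR value. On log2(CPM + 1) with the GC-content correction it was 0.286 of the OG2 and 0.352 of the ICR value, and so still lower but by less.

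**Figure D3:**
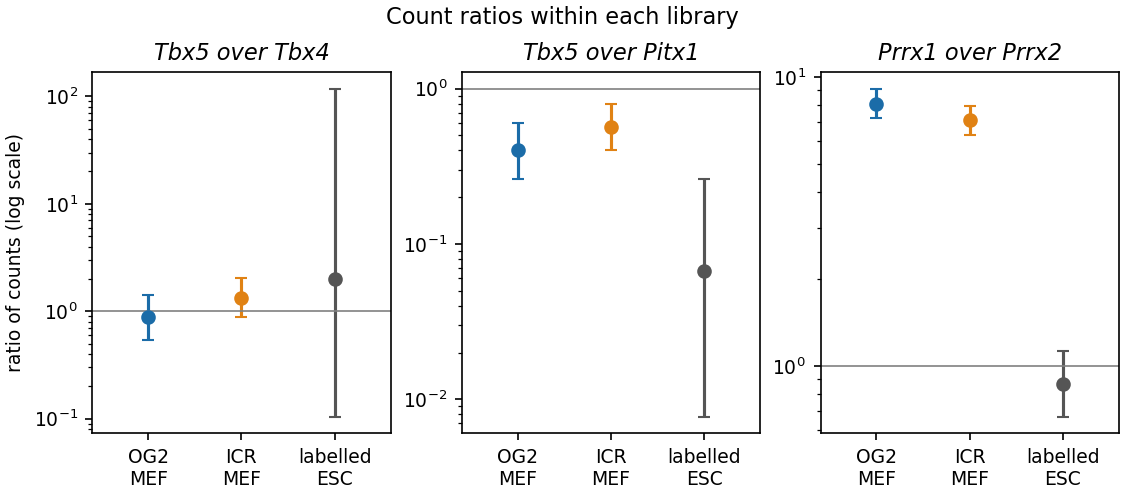
Count ratios of 3 pairs of genes within each library on log axes, with exact 95% intervals. The Prrx1 over Prrx2 ratio is 8.09 and 7.08 in MEFs and 0.867 in the library labelled ESC, while the ratios with *Tbx5* overlap between the MEF libraries.

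The library labelled ESC was then set against both MEF libraries. On log2(CPM + 1), 4 of the 8 genes with a count were at least 1 log2 unit below both MEF libraries, namely *Prrx1*, *Osr1*, *Tbx4* and *Tbx5*, where 25.9% of all genes with a count were, and 0 were that far above both, where 21.9% of all genes were. The same 4 genes were lower by edgeR's quasi-likelihood test at a Benjamini-Hochberg adjusted p under 0.05, where 36% of 12663 tested genes were lower, and 1 gene, *Prrx2*, was higher, where 31.4% were. The other 3 did not pass. With 1 library labelled ESC, a gene's own spread in that test came from the pair of MEF libraries, with 1 residual degree of freedom. edgeR moderated it with the spread over all tested genes.

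*Prrx1* was at 8.83 and 8.86 in OG2 and ICR MEFs and at 6.33 in the library labelled ESC. It thus fell by 2.52 log2 units from a MEF mean of 8.85 ± 0.02 (SD, n = 2), and edgeR gave a log2 fold change of −2.36 with an adjusted p of 1.07e-05. At the MEFs' share of the library total, 856 or 898 counts would have been read where 111 were (91.3 to 134). With TMM scaling, as in the levels above, it would have been 635 or 648. MEF shares below are of the library total unless TMM is named. *Osr1* was at 5.22 and 5.29 in MEFs and at 2.75 in the library labelled ESC, 2.50 below a mean of 5.26 ± 0.05 (SD, n = 2). Its log2 fold change in edgeR was −2.52 (adjusted p = 0.00018), and 8 counts (3.45 to 15.8) stood against 68.4 or 73.7 at the MEF shares. With TMM scaling, 50.7 or 53.2 counts of *Osr1* would have been read. Both genes lay below each MEF library by far more than the MEF libraries lay apart.

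*Tbx4* was at 3.02 and 3.19 in MEFs and at 0.78 in the library labelled ESC. There its TMM-scaled count was 0.0945 of the pooled MEF count (0.00236 to 0.541), and edgeR gave an adjusted p of 0.0117. *Tbx5* was at 2.85 and 3.56 in MEFs and at 1.28 in the library labelled ESC, and its TMM-scaled count was 0.170 of the pooled MEF count (0.0203 to 0.633; edgeR adjusted p = 0.0341). These calls rest on 1 and 2 counts where 13.3 or 15.7 and 11.7 or 21 would have been read at the MEF shares. With TMM scaling, 9.90 or 11.3 and 8.66 or 15.1 would have been read. DESeq2's Wald test gave adjusted p-values of 0.163 and 0.214, and did not call them.

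*Prrx2* was at 5.84, 6.06 and 6.54, that is 0.59 above the MEF mean, but 0.43 below it after a GC-content correction and 1.22 below it on deposited TPM, a scale on which the median of 12726 well-counted genes moved by −1.31. The log2 fold change in edgeR was 0.76 with an adjusted p of 0.00495, and in DESeq2 0.79 with an adjusted p of 0.101. The mean GC content of its transcripts was 62.2%, against a median of 50.5% over well-counted genes and 44.0% for *Prrx1*. Whether GC content has a part in its difference was not tested beyond that correction.

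The other 3 genes did not pass the test in edgeR. For *Tbx15*, 72 counts (56.3 to 90.7) were read where TMM-scaled MEF shares gave 81.4 or 121. *Tbx15* was at 5.89, 6.46 and 5.72 (log2 fold change −0.32, adjusted p = 0.331), and 72 counts stood against 110 or 168 at the MEF shares. *Tbx18* was at 4.54, 4.48 and 4.07 (−0.29, adjusted p = 0.428). *Pitx1* was at 4.04, 4.33 and 4.49 (0.49, adjusted p = 0.210). So 2 of the 4 T-box genes, and neither *Pitx1* nor *Tbx15*, were called lower by edgeR, and no difference between these genes was tested.

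**Figure D4:**
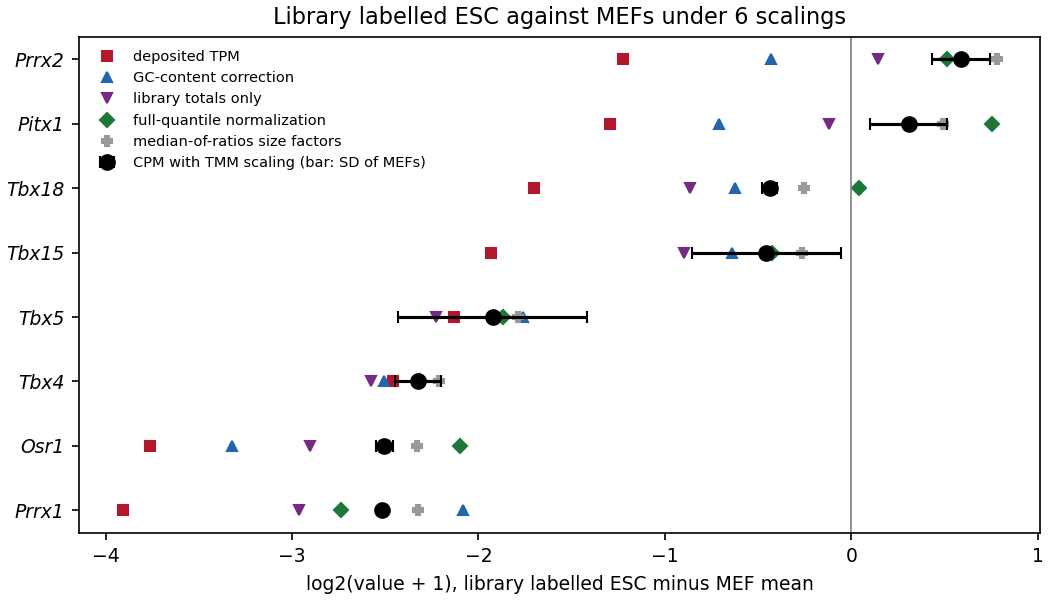
Difference of the library labelled ESC from the MEF mean, in log2(value + 1), under 6 scalings, with the SD of the 2 MEF libraries as bar on the TMM-scaled CPM. *Prrx1*, *Osr1*, *Tbx4*, *Tbx5* and *Tbx15* lie below 0 under all 6, whereas *Prrx2*, *Pitx1* and *Tbx18* lie on both sides, and *Prrx2* runs from 0.78 to −1.22.

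Relatives in the same gene families were taken from lists of the T-box, paired-type, odd-skipped and bHLH genes, with 34 genes in the tables, of which 26 had a count and 15 were tested. edgeR called 7 of them lower in the library labelled ESC and 4 higher, and none was at least 1 log2 unit apart between the MEF libraries. As background for these and the lists below, edgeR called 36% of all tested genes lower and 31.4% higher. Of all genes with a count, 2.76% were that far apart between the MEF libraries. Over the 26 with a count the median difference of the library labelled ESC from the MEF mean was −0.42. It was −1.19 for the 8 limb and body wall genes and −0.13 for all genes. The value for all genes is that of a gene with a single count in ICR MEFs, such as *Myog*. The median was −1.19 for visceral, −0.90 for limb bud and −0.64 for axial, cranial and dermal mesenchyme regulators. It was −3.66 for fibroblast markers. For limb bud ectoderm it was 1.05, and 0.14 on TPM, where the median for all genes was −0.84. Of the 10 ectoderm genes with a count, only 2 had enough counts to be tested. The middle genes of that list were *Fgf9*, with 2, 1 and 2 counts, and *Dlx6*, with 0, 1 and 1.96, so its median is near the limit of detection.

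Among the T-box relatives, *Tbx2* and *Tbx3*, repressors expressed in the limb bud margins, were as high as *Tbx4* and *Tbx5* or higher in MEFs. *Tbx2* had 68, 64 and 69 counts, or 7.01, 7.71 and 10.1 TPM, and *Tbx3* had 96, 79 and 74 counts, or 7.34, 9.41 and 8.03 TPM. Both were called higher in the library labelled ESC by edgeR (log2 fold change 2.19 with adjusted p = 7.51e-05 for *Tbx2*, 1.88 with adjusted p = 1.14e-04 for *Tbx3*), although on TPM *Tbx3* was 0.05 log2 units lower there. *Mga*, which holds a T-box and a bHLH domain, was called lower by edgeR, with 276.01, 381 and 41.37 counts (adjusted p = 0.0333). The median difference of the T-box relatives with a count was 0.36, and it turned to −0.41 with the GC correction and −0.16 on TPM.

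Of the paired-type relatives, *Shox2*, a gene of the proximal limb, had 145, 112 and 4 counts (edgeR log2 fold change −2.86, adjusted p = 6.63e-04). *Alx1*, a craniofacial gene, had 62, 35 and 3 counts (edgeR adjusted p = 0.0492). *Uncx*, a gene of the somites, had 20, 17 and 0 counts (edgeR adjusted p = 0.0332). These genes were called lower by edgeR. *Alx4* was not, with 44, 40 and 14.01 counts (adjusted p = 0.313 in edgeR). *Osr2*, the paralog of *Osr1*, had 26, 22 and 4 counts and did not pass in edgeR (log2 fold change −0.46, adjusted p = 0.606).

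The bHLH relatives of *Tcf21* were led by *Twist2*, with 103, 95.9 and 6 TPM, and *Twist1*, with 62.8, 72.4 and 11.0 TPM. Both are regulators of mesenchyme and both were lower by edgeR (log2 fold change −2.29 with adjusted p = 1.13e-04 and −0.86 with adjusted p = 0.0101). *Scx*, a tendon gene, had 62, 71 and 9 counts, and *Hand2*, a gene of the posterior limb bud, 71, 85.29 and 10.6; neither passed in edgeR (adjusted p = 0.177 and 0.182). The 2 family genes left among the 4 called higher by edgeR were *Phox2a* with 18 counts and *Msc* with 31 in the library labelled ESC, both at 0 in the MEFs and named after their values were seen.

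Of 27 further regulators of limb bud mesenchyme, 23 were tested, 12 were lower in the library labelled ESC by edgeR, 4 were higher and 7 did not pass. *Grem1*, a secreted BMP inhibitor of the limb bud, had 136, 75.2 and 1.90 TPM and was lower by edgeR (log2 fold change −4.08, adjusted p = 1.41e-04). It was also 0.514 times as high in ICR as in OG2 MEFs (0.470 to 0.562), short of 1 log2 unit. *Pbx2*, a homeobox cofactor, had 210, 158 and 71 counts and was higher by edgeR (adjusted p = 0.0138), but lower on TPM and with the GC correction.

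The MEF libraries were at least 1 log2 unit apart in 2 of these 27 genes, beside 2.76% of all genes with a count. Both were higher in ICR. *Msx1*, a homeobox gene of the distal limb bud, had 22 counts in OG2 and 54 in ICR MEFs, a ratio of 2.68 (1.60 to 4.61). *Lmx1b*, which sets the dorsal side of the limb, had 17 and 38 counts, a ratio of 2.44 (1.34 to 4.60). They had 1 and 0 counts in the library labelled ESC.

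In 11 genes of the limb bud ectoderm, 2 were tested and 1 passed. *En1*, which also acts in the dermis, had 8.86, 10.2 and 8.80 TPM, and was higher in the library labelled ESC by edgeR (log2 fold change 1.63, adjusted p = 0.00124), but 0.10 log2 units lower on TPM. *Fgf9* had 2, 1 and 2 counts and *Dlx5* 4, 11 and 0, near the limit of detection, whereas *En1* had 61 and 60 counts in MEFs.

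Of 10 regulators of visceral mesenchyme, 4 were tested, 1 was lower by edgeR and none was higher. That gene was *Foxf1*, a forkhead gene of gut and lung mesenchyme, with 32, 23 and 0 counts (edgeR adjusted p = 0.0122). *Barx1*, a stomach mesenchyme gene, had 8, 18 and 6 counts. The sum over these 10 genes was 18.2 TPM in OG2 and 22 TPM in ICR MEFs, far under that of the limb bud mesenchyme list with 468 and 441 TPM, which holds more genes.

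Of 21 regulators of axial, cranial and dermal mesenchyme, 15 were tested, 8 were lower by edgeR, 2 were higher and 5 did not pass. *Foxc1*, a forkhead gene of cranial and axial mesenchyme, had 203, 153 and 14 counts (edgeR adjusted p = 0.00298). *Sim2* had 251, 136 and 11 counts (edgeR adjusted p = 0.00562), and was 0.591 times as high in ICR as in OG2 MEFs (0.476 to 0.731). The 2 genes of this list at least 1 log2 unit apart between the MEFs were *Tfap2b*, with 3 counts in OG2 and 19 in ICR MEFs, and *Six2*, with 8 and 20, both higher in ICR. Of all genes with a count, 2.76% were that far apart.

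Over all 8 lists of related regulators together, 103 genes were in the tables and 59 were tested, with 28 lower and 11 higher by edgeR. Set beside the 36% and 31.4% of all tested genes, the share of lower calls was above and that of higher calls below the background, and no set was tested. Of the related genes named above with an edgeR call, *Mga*, *Alx1*, *Uncx*, *Twist1*, *Pbx2*, *Lmx1b*, *Foxf1* and *Foxc1* did not pass in DESeq2, whereas *Tbx2*, *Tbx3*, *Shox2*, *Twist2*, *Grem1*, *En1*, *Sim2*, *Phox2a* and *Msc* did.

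**Figure D5:**
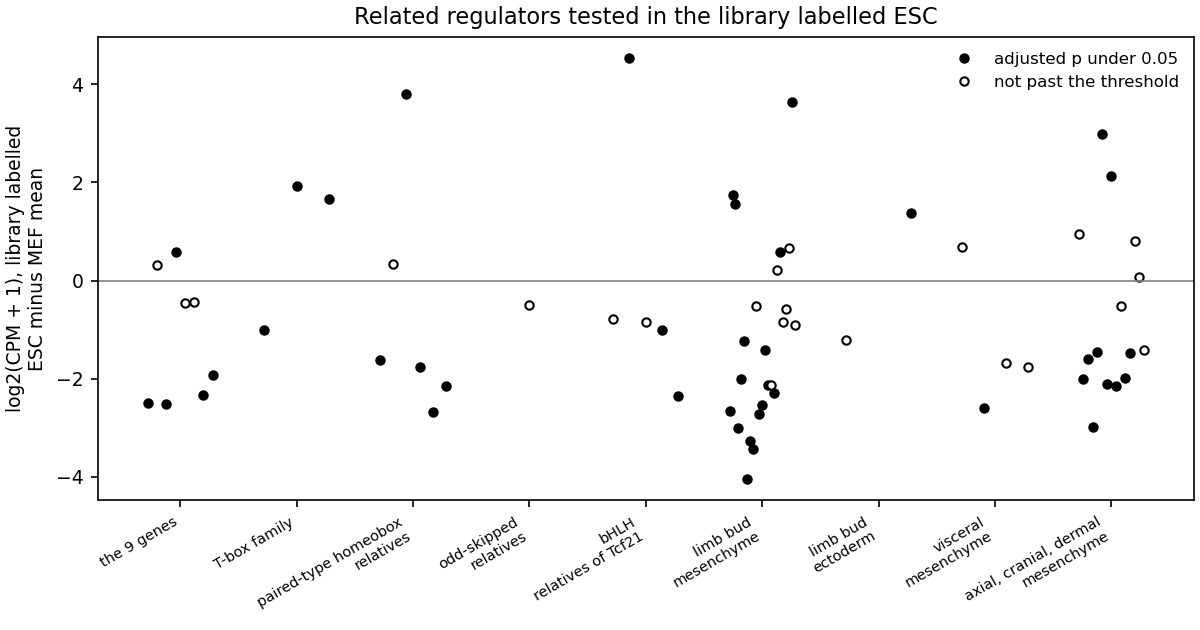
Difference of the library labelled ESC from the MEF mean, in log2(CPM + 1) after TMM scaling, for each tested gene of the 9 and of the 8 lists, with filled points where edgeR's adjusted p was under 0.05. Points below 0 are lower in the library labelled ESC; *Tbx2* and *Tbx3* stand above 0, at 1.93 and 1.66, and *Grem1* is at −4.05.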

How the data were processed

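RNA was extracted with Trizol and made into libraries with a TruSeq kit. The submitters' notes name RSEM, Bowtie and mm10, and the study's methods name bowtie2, trimming with TRIMMOMATIC, Ensembl v67 transcripts and a GC-content normalization. The authors deposited, per library, expected counts (reads estimated per gene by RSEM, not scaled). The same deposited tables hold TPM and FPKM, which the authors' RSEM run scaled by gene length and library size. Read strand is not given in the sources used here.

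From these, counts were rounded to whole numbers for edgeR 4.0.16 (TMM, filterByExpr, quasi-likelihood test, Benjamini-Hochberg over 12663 genes) and DESeq2 1.42.0 in R 4.3.3. The edgeR step was also run on simulated counts in which far fewer genes changed than were called here. That run therefore does not vouch for the calls in these data. Levels were log2(CPM + 1) with TMM, a pseudocount of 1. The MEF libraries were taken as a group of 2 against 1. With no statement that they come from separate animals, p-values measure only the spread between these samples. Gene identifiers were matched to GENCODE M21 for 98.3% of genes. The named genes were the 9 genes, family relatives with at least 20 counts over both MEF libraries, and from each other list the 3 highest in MEF TPM and any gene of at least 20 counts and 1 log2 unit apart between MEFs. Some genes that this rule names are not reported here. The genes and lists were chosen with earlier results of these data known. Alternatives were other scalings, pseudocounts, tests and leaving out a library.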

Additional observations from a re-analysis of the deposited data

How the results depend on the processing

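Under the 7 alternatives, the difference between ICR and OG2 MEFs stayed within the counting interval of its ratio for all 8 genes. Under each, 0 genes were at least 1 log2 unit apart. *Prrx2* in the library labelled ESC turned from 0.59 above MEFs to −0.43 with a GC-content correction and −1.22 on deposited TPM, and the cause was not tested. The Prrx1 to Prrx2 ratio in the library labelled ESC, 0.107 of the OG2 and 0.123 of the ICR value, was 0.286 and 0.352 with the GC correction. The number of genes at least 1 log2 unit below both MEF libraries went from 4 to 8 on TPM, where the median gene moved by −1.31, to 3 with a pseudocount of 5, which lost *Tbx5*, and stayed at 4 without either MEF library. DESeq2 called 2 genes lower (*Prrx1* and *Osr1*) and 0 higher, against 4 and 1 by edgeR. The share of all genes called by DESeq2 was not counted, so its numbers have no background beside them. The Tbx5 to Pitx1 ratio, 0.402 in OG2 and 0.566 in ICR MEFs in counts, was 0.203 and 0.324 on TPM and 0.203 and 0.324 on FPKM, since these divide by gene length. Median shifts of the difference were 0.18 with median-of-ratios size factors, 0.20 with quantile normalization and −0.42 with library totals. edgeR could not be fitted without a MEF library, which leaves no residual degree of freedom. Depth limits *Tbx4* and *Tbx5* in the library labelled ESC. No paired analysis was possible because the group labelled ESC has 1 sample and replicate numbers only name samples.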

Other observations

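Markers of other cell types of the embryo were mostly low in MEFs beside the fibroblast list. The summed TPM in the OG2, the ICR and the ESC-labelled library was 63.7, 41.9 and 3.70 for skeletal muscle (led by *Des*), 4.05, 8.08 and 59.9 for heart muscle, 12.2, 19.9 and 66.6 for epithelium, and 4.10, 4.29 and 25.8 for endothelium. It was 17.0, 12.4 and 59.8 for blood, 88.7, 92.5 and 12.7 for neural cells, 1.72, 4.55 and 2.15 for kidney and gonad, and 101, 113 and 174 for epicardium and mesothelium. The epicardium and mesothelium list held *Msln*, with 228, 195 and 522 counts, and *Upk3b*, with 80, 116 and 1. In the library labelled ESC, 1 gene held most of several sums. These were *Myl7* (51.2 TPM) for heart, *Krt8* (54.1) for epithelium, *Pecam1* (22.8) for endothelium and *Hba-a1* (53.7) for blood. Of other blood genes, *Csf1r* had 4.63, 3.01 and 0.99 TPM and *Cd68* 11.5, 9.39 and 5.14. In endothelium, *Kdr* had 61, 54 and 0 counts, whereas *Tek* had 3, 4 and 23. Some markers of heart (*Nkx2-5*), muscle (*Myod1*, *Pax7*) and kidney (*Pax2*) were at 0 in both MEF libraries, while others of those lists had counts there. *Tnnt2* had 5 counts in OG2 and 15 in ICR MEFs, a ratio of 3.27 (1.13 to 11.5), and *Six2* 8 and 20, a ratio of 2.73 (1.15 to 7.15). *Myog* and *Myf5* had 1 count each in ICR MEFs. *Tbx18* and *Tcf21* are also genes of the epicardium, and the part of such cells in their levels was not tested.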
